A study of Papio anubis with 24 samples.

Results

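The regions described here are 59 windows of 1 Mb on the numbered autosomes of the olive baboon (Papio anubis) in which a list of methylated sites from embryonic stem cells (ESC) held 40 or more peaks while a list from induced pluripotent stem cells (iPSC) added at most 8% of the combined count. They were selected on the peak counts of both lists, so these counts and the gap between the lists inside the windows are a description and were not tested. The members are all peaks that start in the windows, 3457 of the 211395 peaks in all, made up of 3238 of the 166961 ESC peaks (1.94%) and 219 of the 44434 iPSC peaks (0.493%).

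Methylated DNA was collected by MeDIP-seq, an immunoprecipitation of fragmented DNA with an antibody against 5-methylcytosine, beside input libraries without the antibody step. ESC came from the lines B4 and B15, and iPSC from the lines 160-2 and M14939#3. Each line had 3 MeDIP and 3 input libraries. All 4 lines had been derived earlier and were kept on feeder cells in a medium made for human pluripotent cells, and no treatment or genotype beyond the line is given. The labels do not say how much feeder DNA the libraries held. Each cell type has 1 peak list, with no value per library or line. Differences between the cell types therefore carry no replicate error and were not tested, and cell type and line cannot be told apart.

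In mammals 5-methylcytosine lies mainly at CG dinucleotides. DNMT3A and DNMT3B are the enzymes that place it on unmethylated DNA, and DNMT1 copies it to the new strand after replication. Reprogramming rewrites much of the methylation of the starting cell, and work on human cells has described stretches, some of them very long, where iPSC lines differ from ESC lines. MeDIP recovers fragments that carry many methylated cytosines more readily than fragments with few, so a peak marks a stretch that is both methylated and holds enough sites to be captured. The absence of a peak does not show absence of methylation.

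The 59 windows were 2.27% of the 2604 autosomal windows and 4.2% of the 1405 windows with 40 or more ESC peaks. Together their iPSC share was 6.33% (exact Clopper-Pearson 95% interval 5.55 to 7.20%, counting error only), against 23.1% in the 1346 other windows with 40 or more ESC peaks and 13.8% in the 1199 windows with fewer. Inside the set, ESC counts ran from 40 to 104 with a median of 52, and iPSC counts from 1 to 9 with a median of 4.

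Set against all autosomes, the windows were moderately rich in ESC peaks and clearly short of iPSC peaks. Their median of 52 ESC peaks lay above the 42 of all autosomal windows, which 51 of the 59 exceeded, but below the 70 of the other windows with 40 or more. Their median of 4 iPSC peaks lay below the 8 of all autosomal windows, and 58 of the 59 were under that value. Of the selected windows 44 had 40 to 60 ESC peaks. The 503 other windows in that range had a median of 10 iPSC peaks (quartiles 7 and 14), and the selected windows of this density lay below that lower quartile, as the rule requires.

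**Figure D1:**
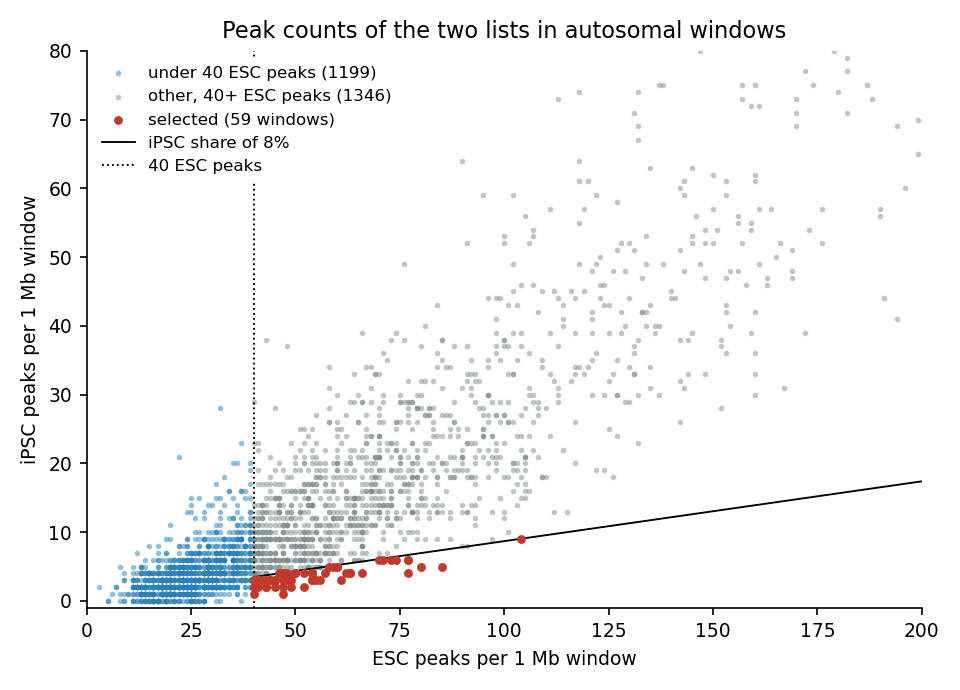
ESC peaks (horizontal) and iPSC peaks (vertical) in each autosomal window of 1 Mb, 1 point per window, for 2525 windows, while 79 with more than 200 ESC or 80 iPSC peaks lie outside the axes. The selected windows (red) lie under the line of an 8% iPSC share and right of the dotted line at 40 ESC peaks, all with 9 or fewer iPSC peaks.

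The window with the most ESC peaks was that from 40 to 41 Mb on chromosome 16, with 104 ESC and 9 iPSC peaks. It was followed by 55 to 56 Mb on chromosome 14 (85 ESC and 5 iPSC peaks) and 38 to 39 Mb on chromosome 7 (80 ESC and 5 iPSC peaks). These 3 had iPSC shares of 7.96%, 5.56% and 5.88%. The next 7 by ESC count lay on chromosomes 5, 6, 8, 9, 11, 12 and 13 and had 70 to 77 ESC and 4 to 6 iPSC peaks. The fullest windows were thus on 10 different chromosomes.

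The lowest iPSC shares were on chromosome 9. From 86 to 87 Mb a single iPSC peak stood among 47 ESC peaks, a share of 2.08% (0.0527 to 11.1%). From 91 to 92 Mb a single iPSC peak stood among 40 ESC peaks (2.44%, 0.0617 to 12.9%). In both windows the single iPSC peak overlapped an ESC peak. The next 3 were 62 to 63 Mb on chromosome 6 (2 iPSC among 52 ESC peaks), 24 to 25 Mb on chromosome 4 (2 among 49) and 46 to 47 Mb on chromosome 5 (2 among 47). With so few iPSC peaks each share is imprecise. The upper interval bounds ran from 11.1 to 19.2% over the 59 windows, and they do not allow for the windows having been chosen for low counts.

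The limit of 8% cut through a continuous range. Just inside it were the windows from 32 to 33 Mb on chromosome 9 (4 iPSC and 46 ESC peaks, 8%) and from 40 to 41 Mb on chromosome 16 (7.96%). Just outside were 23 to 24 Mb on chromosome 8 (5 iPSC and 57 ESC peaks, 8.06%) and 60 to 61 Mb on chromosome 13 (8 and 91, 8.08%). The 5 nearest windows inside spanned 7.84 to 8% and the 5 nearest outside 8.06 to 8.20%.

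The windows were scattered over 17 of the 20 autosomes. Chromosomes 5 and 6 had 7 each and chromosome 9 had 6. Relative to the windows with 40 or more ESC peaks on the same chromosome, that was 13.0% on chromosome 5 (7 of 54, interval 5.37 to 24.9%), 10.6% on chromosome 6 (7 of 66, 4.37 to 20.6%) and 6.67% on chromosome 9 (6 of 90, 2.49 to 13.9%). Chromosome 12 had 5 of 55 (9.09%). Chromosomes 18, 19 and 20 had none among 40, 49 and 61 such windows, counts that allow shares of up to 7.50%, 6.12% and 4.92%. Chromosomes 10, 13, 16 and 17 had 1 each.

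All 59 windows lay in chromosome interiors. None was within 10 Mb of a chromosome end, a count that allows a share of up to 5.08%, whereas 27.5% of the other windows with 40 or more ESC peaks were (370 of 1346), as were 42 of the 1199 windows with fewer (2.54 to 4.71%). Distances run from the window's centre to the first base or to the last peak of the chromosome. The window nearest to an end was 15.5 Mb away, from 15 to 16 Mb on chromosome 8. The median distance was 43.5 Mb, as it was for the windows with under 40 ESC peaks, against 21.5 Mb for the other windows with 40 or more. In the 503 other windows with 40 to 60 ESC peaks the median was 35.0 Mb. Whether this placement is separate from the peak counts that chose the windows was not tested. Where the centromeres lie is not given in the lists.

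**Figure D2:**
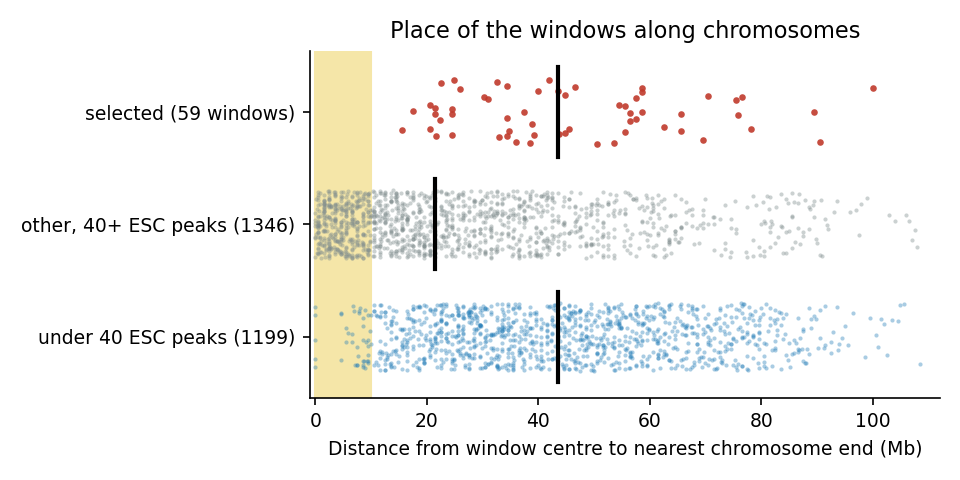
Distance from the centre of each window to the nearest chromosome end in Mb (horizontal), 1 point per window in 3 classes, spread vertically for legibility, with medians as black bars and the first 10 Mb shaded. No selected window falls in the shaded part, and their median of 43.5 Mb equals that of the windows with under 40 ESC peaks.

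Few of the windows touched each other. Just 2 pairs were neighbours, at 89 to 91 Mb on chromosome 1 (108 ESC and 9 iPSC peaks) and at 85 to 87 Mb on chromosome 15 (92 and 7). No further pair was separated by a single window. The 114 windows directly beside the selected ones, leaving out those that were selected themselves, held 4644 ESC and 831 iPSC peaks. The iPSC share of these neighbours was 15.2% (14.2 to 16.2%), beside 6.33% in the selected windows. The selected windows were chosen for a low share, and neighbours that met the same rule were left out. A higher share in the neighbours therefore follows in part from the choice, and how far the shortage of iPSC peaks extends was not tested. The neighbours had a median of 37 ESC and 6 iPSC peaks. Of them, 12 were at or under 8%, with too few ESC peaks to be selected.

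The windows around the selected ones held fewer ESC peaks than those around other windows, and their iPSC share was lower. The 1690 neighbours of the other windows with 40 or more ESC peaks had a median of 59 ESC and 14 iPSC peaks and a share of 22.9% (22.7 to 23.1%). Among neighbours that had 40 or more ESC peaks themselves, the median share was 15.7% beside selected windows (50 windows, quartiles 10.7 and 20.2%) and 20.9% beside the others (1213 windows, 16.1 and 26.1%). The 503 other windows with 40 to 60 ESC peaks, wherever they lay, had a median of 16.7%. These comparisons were not made at like ESC density, and the part of density in them was not tested. At distances of 1 to 5 Mb on either side the share around the selected windows was 14.8 to 16.9% and around the other windows 22.2 to 23.4%. From 1 to 5 Mb on the side of higher coordinates it went from 14.9 to 16.9% around the selected windows and from 23.4 to 22.2% around the others. On the side of lower coordinates it went from 15.4 to 15.6% around the selected windows and from 23.4 to 22.3% around the others. Windows are not independent replicates, so the intervals are too narrow as a measure of how regions vary.

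**Figure D3:**
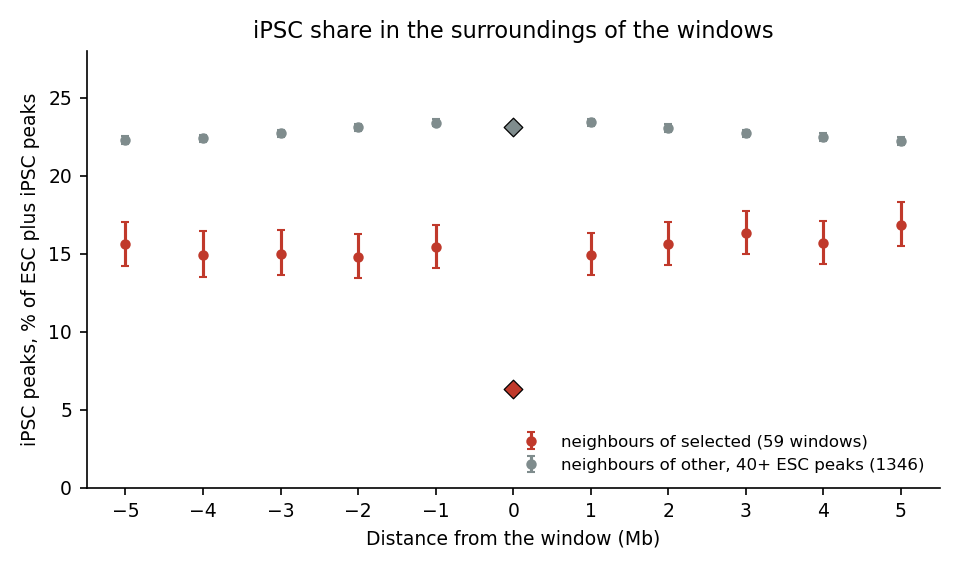
iPSC peaks as percent of ESC plus iPSC peaks (vertical) in windows 1 to 5 Mb to either side (horizontal) of the selected windows (red) and of the other windows with 40 or more ESC peaks (grey), with exact 95% intervals and selected windows left out of the neighbours. Diamonds at 0 show the windows themselves, 6.33% and 23.1%; the neighbours of selected windows lie between 14.8 and 16.9% at every distance.

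The placement of the windows depended on the grid. With the grid moved by 0.5 Mb, 69 windows met the rule, but only 28 of them overlapped one of the 59, and 26 of the 59 were met. In windows of 2 Mb with at least 80 ESC peaks, 9 met the share limit, and 7 of these contained a selected window.

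Inside the windows the spacing of ESC peaks was set beside that in the other windows with 40 to 60 ESC peaks, which are somewhat sparser, with a median of 49 ESC peaks against 52 and none above 60. The gap between the starts of neighbouring ESC peaks had a median over windows of 10.4 kb (lowest 5.01, highest 18.6), against 12.1 kb. Gaps of 2 kb or less made up 12.8% at the median, against 12.0%. The ESC peaks covered 11.8 kb of a selected window at the median, or 24.6 kb in the fullest, on chromosome 16. The largest gap between ESC peaks in a window was 104 kb at the median and 212 kb at most.

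The iPSC peaks left long stretches bare. The longest series of ESC peaks with no iPSC peak starting between them had 27 peaks at the median and spanned 444 kb, against 13 peaks and 222 kb in the other windows with 40 to 60 ESC peaks, a difference that the rule itself brings. In 50 of the 59 windows it held 20 or more ESC peaks. The series with the most peaks, singled out after its values were seen, was on chromosome 5 between 70 and 71 Mb, where 51 of 54 ESC peaks followed each other over 612 kb. The series that spanned most, 806 kb, was on the same chromosome between 105 and 106 Mb and held 47 of 55 ESC peaks. The nearest iPSC peak lay 69.4 kb from an ESC peak at the median in the selected windows (quartiles 24.4 and 155 kb), 24.2 kb in other windows with 40 to 60 ESC peaks and 70.5 kb in windows with under 40. More than 100 kb separated 39.2% of the ESC peaks of the selected windows from any iPSC peak. The same held for 40.3% in windows with under 40 ESC peaks. In the other windows with 40 to 60 it held for 13.5%, and in all other windows with 40 or more for 4.65%. Such distances to an iPSC peak also follow in part from the low iPSC counts that the rule requires.

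Those iPSC peaks that were present mostly stood on ESC peaks. Of the 219, 169 overlapped an ESC peak (77.2%, 71.0 to 82.6%). The share was 66.7% (66.2 to 67.2%) in the other windows with 40 or more ESC peaks and 62.4% (61.1 to 63.6%) in those of them with 40 to 60. In the windows with under 40 it was 64.7% (63.3 to 66.0%). How far the rule, which asks for many ESC peaks per iPSC peak, bears on this share was not tested. In 27 of the selected windows every iPSC peak overlapped an ESC peak, and no selected window lacked an overlapping iPSC peak. The 50 iPSC peaks without overlap lay 5.27 kb from the nearest ESC peak at the median, 4 of them within 1 kb and 14 over 10 kb away. Seen from the ESC list, 169 of 3238 peaks (5.22%, 4.48 to 6.04%) overlapped an iPSC peak, against 20.4% in the other windows with 40 or more, a share that the low iPSC count bounds.

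Each of the 169 shared sites paired 1 ESC with 1 iPSC peak, which allows both lists to be read at the same place. The deposited fold enrichment, the authors' ratio of fragments at the summit to the local background, was higher in iPSC at 120 of the 169 (71.0%, 63.5 to 77.7%), as it was at 77.6% (77.1 to 78.2%) of the shared sites of the other windows with 40 or more ESC peaks and 72.6% of those of the windows with fewer. Its median there was 2.78 in the iPSC list and 2.37 in the ESC list. The pileup, meaning the number of fragments stacked at the summit, was recovered from the deposited fold and p-value and set relative to the lowest background of its list, taken as the genome level. It ran the other way, at 5.60 times that level in iPSC and 8.09 times in ESC, and was higher in iPSC at 4 sites (2.37%), beside 2.42% in the other windows with 40 or more. The iPSC to ESC ratio of this relative pileup was 0.730 at the median (quartiles 0.668 and 0.809), beside 0.726 (0.660 and 0.798) at the 22986 shared sites of the other windows with 40 or more ESC peaks. The local background, recovered in the same way and on the same scale, was also lower in iPSC, at 1.96 against 3.06. It was higher in iPSC at 5 sites (2.96%), beside 2.69% in the other windows with 40 or more. Where both lists had a peak, the median pileup ratio of the 2 classes of window thus differed by less than the spread between sites. The levels themselves were higher in the other windows with 40 or more. The median relative background at their shared sites was 2.74 in iPSC and 4.63 in ESC, and the relative pileup 7.22 and 9.84. In the windows with under 40 ESC peaks the relative background was 2.05 in iPSC and 3.21 in ESC.

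ESC peaks of the selected windows were of the low-background kind. The recovered local background, read as coming from the input libraries, had a median of 21.5 fragments (quartiles 16.1 and 29.5), against 32.2 (21.5 and 48.3) in the other windows with 40 or more ESC peaks and 20.9 in windows with under 40. Window by window the median background ran from 17.0 to 25.5 fragments (quartiles 20.1 and 22.6). In the other windows with 40 or more it ran from 16.1 to 60.9 (quartiles 23.7 and 34.0). Those of them with 40 to 60 ESC peaks had quartiles of 21.5 and 27.7. The pileup was lower as well, at 4.59 times the genome level against 6.17 in the other windows with 40 or more. It was also 4.59 times that level in windows with under 40. The fold was higher than in the other windows with 40 or more, at 2.45 (2.10 and 2.86) against 2.23 (1.90 and 2.62). Of the peaks, 19.2% had a fold of 3 or more, against 11.2%. Against the other windows with 40 to 60 ESC peaks the medians stood closer, at 24.2 fragments, 5.09 times the genome level and a fold of 2.38. The share with a fold of 3 or more was 16.9% in those windows and 22.1% in the windows with under 40 ESC peaks, with the selected windows between them.

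**Figure D4:**
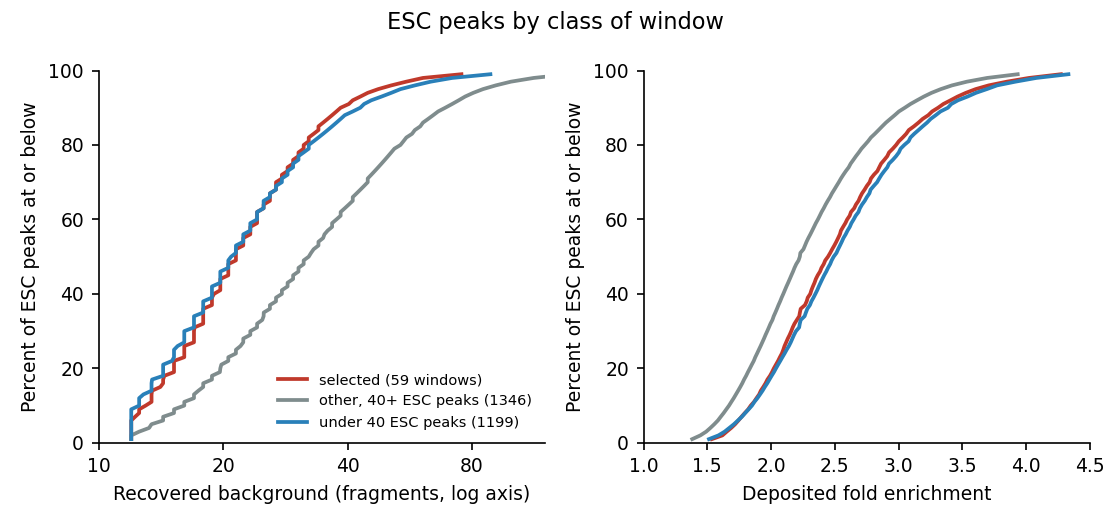
Percent of ESC peaks (vertical) at or below a given recovered background in fragments (left, log axis) and a given deposited fold enrichment (right), from the 1st to the 99th percentile, by class of window. The curve of the selected windows runs beside that of windows with under 40 ESC peaks, with medians of 21.5 and 20.9 fragments, and apart from the other windows with 40 or more, with 32.2.

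In width the ESC peaks were close to those of windows of low or like ESC count. Their median was 209 bp (188 and 254), beside 208 bp in the windows with under 40 ESC peaks, 210 bp in the other windows with 40 to 60 and 217 bp (192 and 274) in all other windows with 40 or more. Only 17 of 3238 (0.525%, 0.306 to 0.839%) were 500 bp or wider, against 1.06% in the windows with under 40, 1.62% in those with 40 to 60 and 2.64% (2.55 to 2.73%) in all other windows with 40 or more. None reached 1 kb, a count that allows a share of up to 0.0926%, and in the other 3 classes 0.0525%, 0.0525% and 0.130% did. The deposited −log10 q-value, each peak's significance within its own list, had a median of 6.80 against 7.25 in all other windows with 40 or more. Of the peaks, 25.05% reached 10, against 28.9%. These values were 7.06 and 27.1% in the other windows with 40 to 60, and 7.18 and 26.8% in those with under 40. For iPSC the median width was 222 bp against 244 bp in all other windows with 40 or more. The iPSC fold was 2.78 against 2.56, and 3.65% of peaks (1.59 to 7.07%) were 500 bp or wider, against 11.2%. In the windows with under 40 ESC peaks these iPSC values were 227 bp, 2.74 and 6.06%. The other windows with 40 to 60 had 232 bp, 2.66 and 8.48%.

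High-ranking ESC peaks overlapped the iPSC list more often, in the selected windows as elsewhere. Of the 811 ESC peaks there with a −log10 q of 10 or more, 88 overlapped (10.9%, 8.79 to 13.2%), and of the 67 with 20 or more, 23 did (34.3%, 23.2 to 46.9%). In the other windows with 40 or more ESC peaks the shares were 30.9% and 53.2% (51.5 to 55.0%). In those of them with 40 to 60 they were 23.9% and 44.8% (40.5 to 49.2%). The windows with under 40 had 19.3% and 42.3% (38.5 to 46.1%). At 20 or more, with 67 peaks, the interval of the selected windows covered the shares of both these classes, but at 10 or more it did not. The low iPSC count that chose the selected windows bounds their overlapping share at each of these limits. The lower shares are therefore a description and no separate result.

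The overlapping share went up with background in both classes of window. With the whole ESC list divided into 4 equal bins by background, the lowest bin held 42.5% of the ESC peaks of the selected windows and 20.2% of those of the other windows with 40 or more. The overlapping share in it was 0.436% (0.160 to 0.947%) and 1.41% (1.26 to 1.56%). It was 3.43% and 5.96% in the next bin, 12.2% and 18.2% in the one after, and 29.2% (22.7 to 36.5%) and 48.6% (48.1 to 49.2%) in the highest. In all 4 bins it was thus lower in the selected windows, whose overlapping share is bounded by the low iPSC count that chose them. The direction is therefore no separate result. With the other windows weighted to the background of the selected ones, a comparison added after the data were seen, their overlapping share was 8.06% in place of 20.4%, beside the 5.22% of the selected windows. The difference went from 15.2 to 2.84 percentage points. In the highest bin, which held 178 ESC peaks of the selected windows, the shares stood further apart in percentage points than over all bins. As a ratio they stood closer there than over all bins. The part of background in the shortage of iPSC peaks was not tested.

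**Figure D5:**
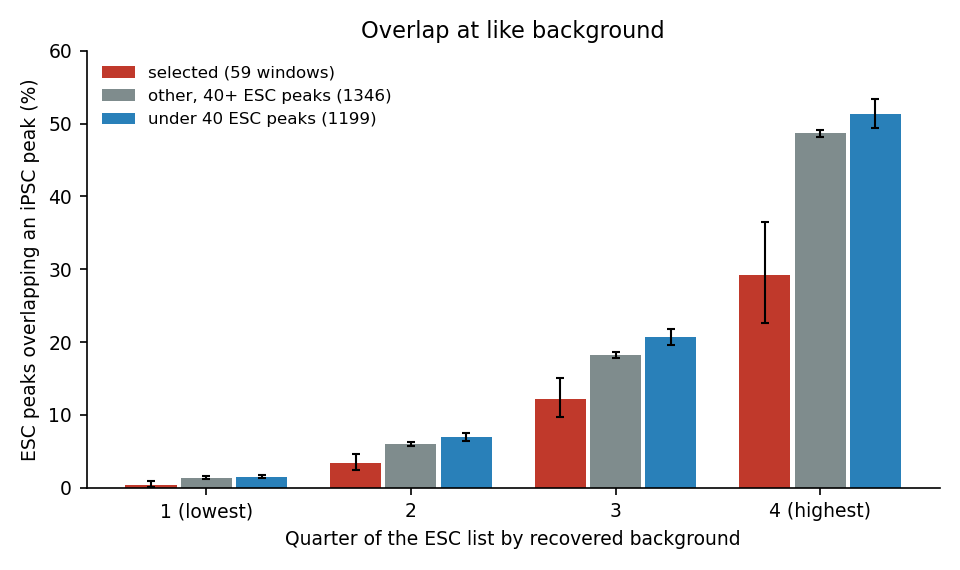
Percent of ESC peaks that overlap an iPSC peak (vertical) in 4 equal bins of ESC peaks by recovered background (horizontal), by class of window, with exact 95% intervals that cover counting error only. In every bin the selected windows (red) are lowest, from 0.436% to 29.2%, against 1.41% to 48.6% in the other windows with 40 or more ESC peaks. The low iPSC count that chose the selected windows bounds their share.

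With the ESC list cut to the peaks of highest −log10 q so that it was as long as the iPSC list, 743 ESC and the same 219 iPSC peaks were left in the 59 windows, an iPSC share of 22.8% (20.2 to 25.5%). The share in the other windows with 40 or more ESC peaks then was 52.8%. With only peaks whose −log10 q reached 5 in both lists, the shares were 6.97% and 24.7%.

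The ESC peaks with the highest fold in the windows lay over a background near the lowest of the list. The highest was on chromosome 9 at 21573529 to 21573735, with a fold of 6.21 from 83 fragments over a background of 12.5, and it lay 132 kb from the nearest iPSC peak. It ranked 5 by fold in the whole ESC list. Next came chromosome 14 at 55741460 to 55741674 (fold 5.47, 15.1 kb from an iPSC peak) and chromosome 12 at 83172444 to 83172654 (fold 5.32, 75.8 kb). The 5 highest had folds of 5.08 to 6.21 and backgrounds between 12.0 and 13.5 fragments. None of the 5 overlapped an iPSC peak, as was the case for all but 6 of the 1376 ESC peaks of the selected windows in the lowest bin of background.

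The widest ESC peaks were of another kind, with low folds. The widest, 699 bp on chromosome 10 at 46263164 to 46263862, had a fold of 1.91 over a background of 72.5 fragments. The second, 665 bp on chromosome 3 at 20731393 to 20732057, had a fold of 1.49 over 200.5 fragments. Of the 5 widest, 1 overlapped an iPSC peak, on chromosome 12 at 93111407 to 93111998.

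Among the iPSC peaks the highest fold was 5.27, on chromosome 5 at 21005405 to 21005740, and this peak overlapped an ESC peak. The second, with 4.72, was on chromosome 5 at 70079996 to 70080192. Of the 5 highest, with folds of 4.39 to 5.27, 4 overlapped an ESC peak, and the exception, on chromosome 8 at 115728603 to 115728923, lay 9.07 kb from one. The highest iPSC fold ranked 194 in its list. Genes at these places are not given, since no annotation of the build of the lists is used here, and all positions are as in the lists, counted from 1.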

How the data were processed

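The 24 libraries fall by title into MeDIP and input groups of ESC and iPSC, 6 in each of the 4 groups; in 5 of them the line label differs from the title in the number after the hash sign. Per the submitters' processing notes, SAMtools 1.10, Picard 2.239, MACS2 and deepTools were used. Of the build, the MACS2 options and the way libraries were combined, nothing is given in the sources used here. The deposited narrowPeak lists hold a fold enrichment (a ratio), a −log10 p-value, a −log10 q-value (lowest 1.30) and a score for each peak, all the authors' values. The score deposited for a peak equals its −log10 q times 10, cut to a whole number, for 99.99% of ESC and 99.98% of iPSC peaks.

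Windows of 1 Mb were cut from position 0 by peak start. Peaks were compared by overlap of at least 1 bp. Pileup and background were recovered from the deposited fold, read as pileup plus 1 over background plus 1, and the −log10 p, read as a Poisson tail. A whole number of fragments, times 0.690 for iPSC, a factor fitted to that list, gave back the deposited p within 0.1% for 100% of ESC and 99.99% of iPSC peaks. On data made with the same formulas, at least 99.94% were recovered. Read depth is unknown; the lowest background was 12.0 fragments for ESC and 10.2 for iPSC. Intervals are exact Clopper-Pearson 95% intervals, cover only counting error, and take peaks as independent although neighbours may not be. The limit for a count of 0 is 3 counts. Regions were named by a written rule: the windows with most ESC peaks or lowest iPSC share, those at the limit, touching windows, and the peaks of highest fold or width. The regions and this rule were chosen with earlier results of these data known. Computations used scipy 1.17.1, numpy 2.4.6 and pandas 2.3.3 in Python 3.11.15, and plots matplotlib 3.10.9.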

Additional observations from a re-analysis of the deposited data

Results flagged for a closer look

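The X chromosome, which the choice of windows leaves out, also holds windows of this kind. Of its 36 windows with 40 or more ESC peaks, 13 (36.1%, exact 95% interval 20.8 to 53.8%) had an iPSC share of at most 8%, with 687 ESC and 38 iPSC peaks between them, against 59 of 1405 (4.20%, 3.21 to 5.38%) on the autosomes. It was looked at because these peaks lie outside the values above. The median iPSC share of such windows was 11.5% on X and 19.7% on autosomes; the labels do not give the number of X copies per cell.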

How the results depend on the processing

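Of 34 alternatives, 22 left the value within its interval, within 1.5 times the count or within the spread over windows (1 SD of window medians), 12 moved it and none reversed it. The number of windows followed the limits: 24 at a share of at most 6%, 120 at 10%, 136 with at least 30 ESC peaks, 17 with at least 60, 9 in 2 Mb windows and 24 at a −log10 q of at least 5. The iPSC share of 6.33% became 22.8% with the ESC list at the iPSC length, which has fewer ESC peaks by construction. The difference in overlap of ESC peaks became 2.84 percentage points with other windows weighted by background. Selected over other windows, the median background ratio of 0.667 became 0.889 among windows of 40 to 60 ESC peaks, 0.742 without overlapping peaks and 0.758 with each window counted once; the fold ratio of 1.099 became 1.04 among windows of 40 to 60 ESC peaks. For these ratios the cause was not tested. No paired analysis was possible because a single list stands for each cell type, with no column per replicate, which also prevents leaving out replicates. Depth per library is unknown.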
